A study of Arabidopsis thaliana with 24 samples.

Results

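The genes described here are the Arabidopsis thaliana genes annotated to microtubule-based movement, nearly all of them kinesins. They were taken from the Biological Process column of the authors' table for cells, as probe sets that name 1 gene and hold the exact term microtubule-based movement. Probe sets that also hold protein polymerization, which are the tubulins, were left out. Of 75 probe sets with the term, 14 were dropped in this way, and the remaining 61 stood for 60 of the 20302 genes that have a probe set of their own. AT3G10180 had a pair of probe sets and was read from the one with the higher mean. All 60 genes also carry the annotations microtubule motor activity and ATP binding, 5 carry cytokinesis and 15 carry chloroplast. A symbol was given by the files or by RefSeq for 22 genes, and the other 38 are called by their locus identifier.

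The study used 24 single-colour Affymetrix arrays in 4 groups of 6. Flight cells and ground cells are undifferentiated tissue culture cells of wild-type, non-transgenic Col-0 derived from hypocotyls. Flight seedlings and ground seedlings are etiolated Col-0 seedlings grown from seeds sown on the dish. All groups were kept in the dark on nutrient agar in 60 mm dishes inside BRIC canisters, closed hardware for small payloads. RNAlater was added to the flight dishes while still in orbit, 12 days and 21 hours into the mission, and the ground dishes were fixed in the same hardware positions in a chamber on the ground. The labels also give 7 days as the age of every sample, and how this relates to the time in orbit is not given in the sources used here. The flight groups differ from the ground groups in the whole spaceflight environment, so gravity cannot be told apart from launch, radiation or the cabin. Each array holds the RNA of a whole dish, so fewer cells of a type and less RNA per cell cannot be told apart.

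Kinesins are motor proteins that use ATP to walk along microtubules. In plant cells they drive the spindle, build and steer the phragmoplast that makes the new cell wall at cytokinesis, and in cells that no longer divide they order wall deposition, shape hairs and move organelles. Dark-grown seedlings lengthen mainly by cell expansion with division at the tips, whereas cultured cells can divide without forming organs.

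Levels are given as log2(value + 16), where the value is the deposited MAS5 intensity, and differences are on that scale, which understates the differences of dim probe sets. A probe set counts as above background on an array where it lies over the background level. This level was set at the 95th percentile of 27 probe sets for bacterial genes, taken here to have received no target. The share of all 22746 probe sets above background was 26.5% ± 25.6 in flight cells, 18.8% ± 4.56 in ground cells, 62.2% ± 3.49 in flight seedlings and 50.0% ± 8.66 in ground seedlings (SD, n = 6 each). Replicate 5 of flight cells stood apart with 76.7% against 9.94% to 30.3% on the other 5 arrays. Over all probe sets, pairs of arrays of a group correlated with a median Pearson r of 0.304 in flight cells, 0.315 in ground cells, 0.890 in flight seedlings and 0.813 in ground seedlings. The cell label was set beside markers of organs. Of 6 shoot epidermis genes, all of which passed background on at least 4 of 6 flight seedling arrays and 5 on as many ground seedling arrays, 0 did so in flight cells and 0 in ground cells. Of 8 root genes the counts were 0 in flight cells, 1 in ground cells, 4 in flight seedlings and 3 in ground seedlings. By the test, however, 3 of the root genes were called higher in ground cells than in ground seedlings, with a median difference of 1.41, and 5 were called higher and 1 lower in flight cells than in flight seedlings, with a median of 2.23. After quantile normalization 1 was called higher on the ground, and 3 higher and 1 lower in flight. Of the 6 shoot epidermis genes 1 was called lower on the ground and 2 in flight, as deposited, in cells minus seedlings. Of 6 plastid genes 1 was called higher in each comparison. After quantile normalization 1 and 3 shoot epidermis genes were called lower, and 0 plastid genes were called. With each array set to its spiked hybridization controls instead, a scaling chosen after seeing the data, no marker was called higher. Of the 8 root genes 3 were then called lower in each comparison, with medians of -0.93 on the ground and -0.54 in flight. All 6 shoot epidermis genes were lower in each, as were 1 plastid gene on the ground and 5 in flight. Of all probe sets 45.6% were then called lower on the ground and 56.1% in flight. Few probe sets of any kind passed background on the cell arrays. The counts there therefore do not show that shoot or root transcripts are absent, and they do not settle the label.

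The kinesins followed the same split between materials. On flight cell arrays 18.6% ± 29.0 of the 60 genes were above background, on ground cell arrays 8.61% ± 4.14, on flight seedling arrays 58.3% ± 9.07 and on ground seedling arrays 30% ± 15 (SD, n = 6 each). Replicate 5 of flight cells alone had 46 of the 60 genes above background, and the share over the other 5 flight cell arrays was 7.00% ± 6.60. Replicate 1 of ground seedlings had 2 of the 60, against 15 to 26 on the other 5 ground seedling arrays, whose share was 35.3% ± 8.20. Flight seedlings ranged over 26 to 42 of the 60 genes. These shares depend on each array's background as well as on the transcripts. The mean background level was 9.57 in flight cells, 9.89 in ground cells, 6.88 in flight seedlings and 7.62 in ground seedlings.

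**Figure D1:**
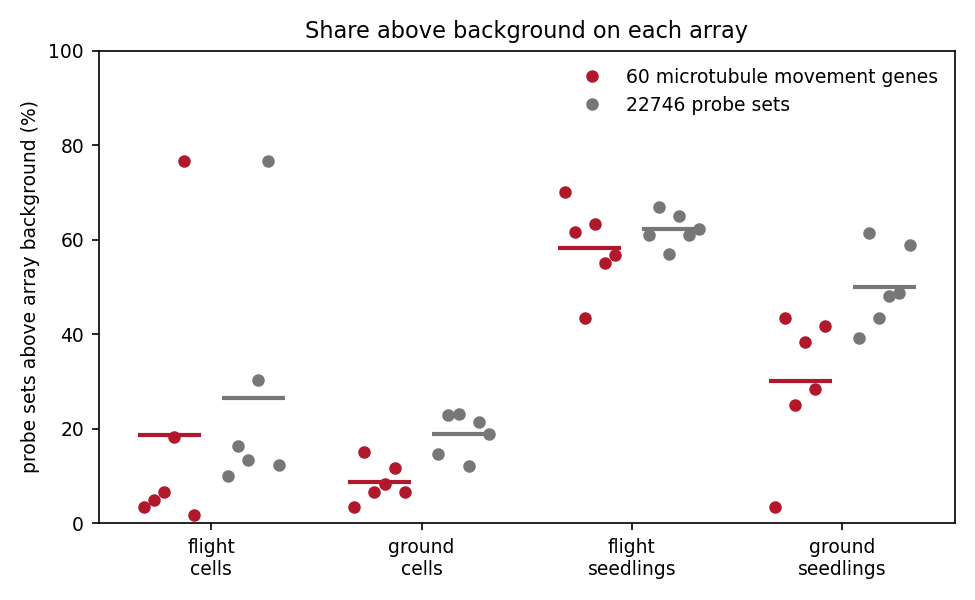
Share of the 60 microtubule movement genes (red) and of all 22746 probe sets (grey) above the background of each array, in percent, for the 4 groups of 6 arrays; points are arrays and bars are group means. One flight cell array lies at 76.7% for both sets while the other cell arrays lie at or below 30.3%, and one ground seedling array has 3.33% of the kinesins above background.

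Gene by gene, 15 of the 60 were above background on all 6 flight seedling arrays, and 0 on all 6 arrays of any other group. Without replicate 1 of ground seedlings, 9 genes were above background on all 5 other ground seedling arrays. Above background on at least 4 arrays were 1 gene in flight cells, 0 in ground cells, 33 in flight seedlings and 15 in ground seedlings. The 1 in flight cells was HIK. On no array of the group were 10 genes in flight cells, 36 in ground cells, 8 in flight seedlings and 20 in ground seedlings. Without replicate 5 of flight cells, 42 genes were on no flight cell array and 0 on at least 4. In seedlings 48 genes had more flight than ground arrays above background, 4 had fewer and 8 had equal numbers. This split was not counted over all probe sets, whose mean share above background was also higher in flight, 62.2% against 50.0%. The mean background level was lower in flight seedlings, 6.88 against 7.62, and its part in the split was not tested. Across the 60 genes, the median Pearson r between arrays of a group was 0.058 in flight cells and 0.125 in ground cells, against 0.722 in flight seedlings and 0.496 in ground seedlings. These correlations describe how alike the arrays of a group rank the genes, and they share each probe set's own brightness.

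The first comparison asks whether kinesin transcripts of seedlings differed in the spaceflight environment. No kinesin passed the test: 0 of 60 were called in flight seedlings minus ground seedlings, at an adjusted p under 0.05 by limma over all probe sets, where 0.0176% of all probe sets were called. At an unadjusted p under 0.05 there were 8 kinesins higher and 2 lower in flight, 10 of 60, against 8.01% of all probe sets, 3.34% higher and 4.67% lower. The smallest adjusted p of a kinesin was 0.392. By value alone, 36 of the 60 were higher and 24 lower in flight, where 48.5% of all probe sets were higher, and their median difference was 0.35, against -0.02 over all probe sets. A difference above 1 was found for 10 kinesins, or 16.7%, and for 3.88% of all probe sets, and 3 kinesins, or 5%, lay below -1, as did 5.44% of all probe sets.

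The lean toward flight rested in part on 1 array. Without replicate 1 of ground seedlings, the array with 2 kinesins above background, the median difference was 0.11, 33 of the 60 genes were higher in flight and 3 differed by more than 1. That array was the lowest of the 6 ground arrays for 21 of the 60 genes. Of the organ markers 0 of 6 plastid, 0 of 6 shoot epidermis and 0 of 8 root genes were called between these groups as deposited. Their median differences were 1.30, 0.72 and -0.03. The 6 plastid markers summed to intensities of 1588 to 2951 in flight seedlings and 739 to 1376 in ground seedlings, and 6 of them passed background on at least 4 arrays in flight against 1 on the ground. The 6 shoot epidermis markers summed to 3161 to 7250 in flight seedlings and 412 to 3920 in ground seedlings, and the 8 root markers to 1889 to 2723 in flight seedlings and 1045 to 2720 in ground seedlings. Among the root genes GL2 and RHD6 passed background on no seedling array. The part of these markers and of the higher share of probe sets above background in the kinesin values was not tested.

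**Figure D2:**
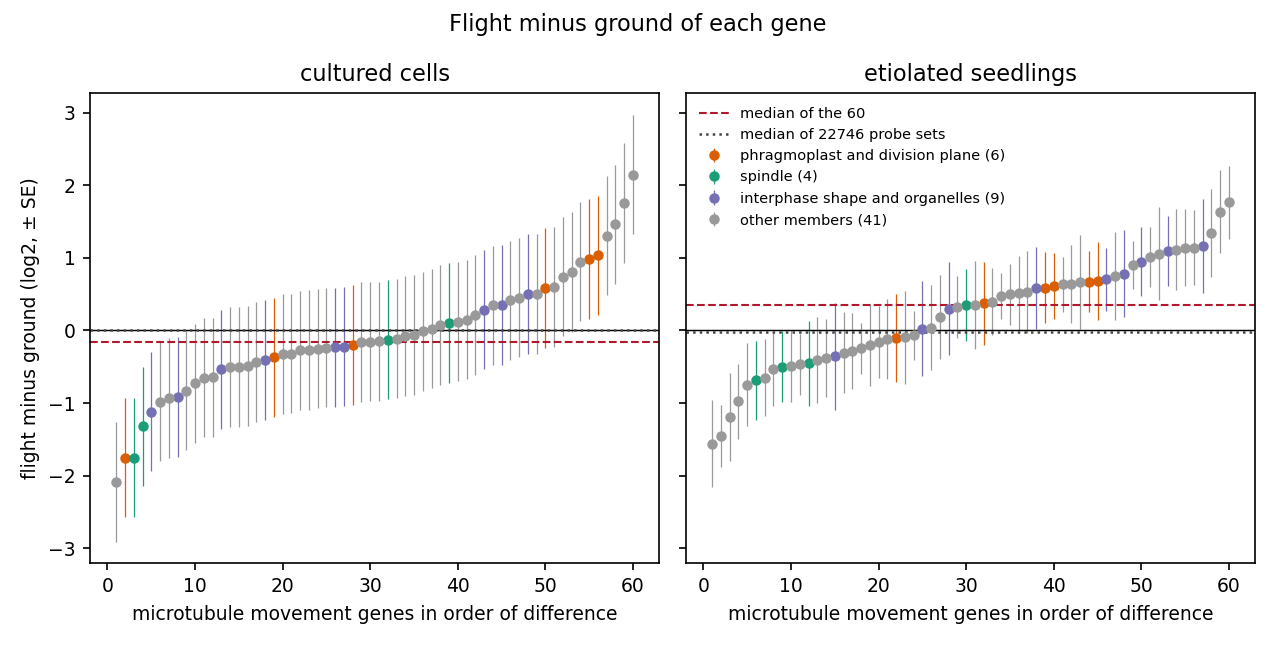
Flight minus ground difference of each of the 60 genes (log2, ± SE) in cultured cells and in etiolated seedlings, in order of size and coloured by role, with dashed lines at the median of the 60 and dotted lines at the median of all 22746 probe sets. In seedlings the median of the 60 is 0.35 and in cells -0.15, and no single gene is called in either panel.

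Kinesins of the phragmoplast and division plane were mostly higher in flight seedlings, none of them called. Of the 6 genes 5 were higher in flight and 1 lower, with a median of 0.60 and a range of -0.11 to 0.68, and without replicate 1 of ground seedlings the median was 0.45. HIK (AT1G18370, HINKEL), the kinesin that activates a kinase cascade for phragmoplast expansion, lay at 6.96, 7.64 and 8.38 (lowest, median and highest) in flight seedlings and at 5.89, 7.29 and 7.86 in ground seedlings, a difference of 0.67 ± 0.42 (SE, adjusted p = 0.706). Its groups overlapped, and it was above background on 5 flight and 2 ground arrays. TES (AT3G43210), a related kinesin needed for cytokinesis after male meiosis, lay at 8.53, 8.85 and 9.43 in flight seedlings and at 7.01, 8.49 and 9.91 in ground seedlings. It was above background on all 6 flight and 5 ground arrays, and its groups overlapped through a wider ground spread. PAKRP1 (AT4G14150) and KINESIN-12B (AT3G23670) are a pair of related motors at the phragmoplast midline. PAKRP1 had values of 6.48, 7.51 and 8.60 in flight seedlings and 5.29, 7.15 and 7.69 in ground seedlings. KINESIN-12B had values of 5.51, 7.18 and 8.41 in flight seedlings and 4.97, 7.14 and 8.06 in ground seedlings, with medians that nearly coincide. Each of the pair was above background on 5 flight arrays, against 1 ground array for PAKRP1 and 2 for KINESIN-12B. Without replicate 1 of ground seedlings the difference of TES rose from 0.61 to 0.74 and that of PAKRP1 from 0.59 to 0.75. Those of HIK and KINESIN-12B fell to 0.45 and 0.13.

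POK1 (AT3G17360) and POK2 (AT3G19050) guide the phragmoplast to the division site chosen before mitosis. POK2 lay at 5.32, 6.55 and 7.33 in flight seedlings and at 4.71, 5.31 and 7.43 in ground seedlings, a difference of 0.68 ± 0.53 (SE, adjusted p = 0.744) that was 0.45 without replicate 1 of ground seedlings. POK1 was the gene of the group that was lower in flight, with 4.17, 4.74 and 7.81 against 5.14, 5.39 and 6.60 on the ground, a difference of -0.11 ± 0.60. Without replicate 1 of ground seedlings it turned to 0.10. Both were near background, which POK1 passed on 1 flight array and 0 ground arrays, and POK2 on 2 flight arrays and 1 ground array.

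The spindle kinesins were mostly lower by value, again with none called. They are minus-end directed motors of the kinesin-14 family, which walk toward the spindle poles. Of the 4, 1 was higher and 3 were lower in flight, with a median of -0.47 and a range of -0.69 to 0.35. ATK2 (AT4G27180) was the well measured member, at 7.38, 8.68 and 9.07 in flight seedlings and at 6.06, 8.45 and 9.17 in ground seedlings, above background on all 6 flight and 4 ground arrays. Its difference of 0.35 ± 0.50 (SE, adjusted p = 0.860) was smaller than the spread within the ground group, and it was -0.08 without replicate 1 of ground seedlings. ATK5 (AT4G05190), which gathers microtubules at spindle poles, lay at 4.63, 6.43 and 7.71 in flight seedlings and at 5.94, 6.86 and 8.03 in ground seedlings. ATK1 (AT4G21270), known for the male meiotic spindle, and ATK3 (AT5G54670) passed background on at most 1 array of either group, with medians of 5.48 and 6.19 in flight seedlings and 5.99 and 6.72 in ground seedlings.

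Kinesins that shape non-dividing cells or move organelles were mostly higher in flight seedlings by value. Of the 9, 8 were higher in flight seedlings and 1 was lower, with a median of 0.71 and a range of -0.36 to 1.16, and none was called. Without replicate 1 of ground seedlings 8 were still higher, with a median of 0.33. FRA1 (AT5G47820), which orders cellulose microfibrils in fibre walls, lay at 9.43, 10.01 and 10.85 in flight seedlings and at 5.70, 9.49 and 10.35 in ground seedlings, a difference of 1.16 ± 0.65 (SE, adjusted p = 0.674). All 6 flight arrays and 5 ground arrays were above background, the lowest ground value was that of replicate 1, and without it the difference was 0.51. ZWI (AT5G65930), a calmodulin-binding kinesin needed for trichome branching, lay at 7.87, 8.40 and 8.68 in flight seedlings and at 5.51, 8.03 and 8.41 in ground seedlings. Its difference of 0.95 ± 0.47 (SE, adjusted p = 0.640) was 0.57 without replicate 1.

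The armadillo repeat kinesins and the chloroplast movement pair completed this group. ARK3 (AT1G12430) lay at 7.48, 8.10 and 8.92 in flight seedlings and at 5.54, 7.87 and 8.01 in ground seedlings, and ARK2 (AT1G01950) at 6.62, 7.90 and 8.41 in flight seedlings and at 5.59, 6.59 and 8.80 in ground seedlings. Both overlapped between groups. MRH2 (AT3G54870), needed for root hair tip growth, had near-equal medians of 5.83 in flight and 5.76 on the ground and was above background on 1 flight array. KAC1 (AT5G10470), which with KAC2 (AT5G65460) moves and anchors chloroplasts through short actin filaments, lay at 5.08, 6.27 and 7.68 in flight seedlings and at 4.47, 5.12 and 6.95 in ground seedlings. Its difference of 1.10 ± 0.48 (SE) had an unadjusted p under 0.05 and an adjusted p of 0.593, with 2 flight arrays and 0 ground arrays above background. KAC2 differed by 0.30 ± 0.64 (SE), and by 0.037 without replicate 1 of ground seedlings. KP1 (AT3G44730), a kinesin found at mitochondria, differed by 0.58 ± 0.57 (SE), and by 0.26 without that array. KINESIN-13A (AT3G16630), a motor of Golgi stacks that affects trichome shape, was the exception, with 4.85, 8.26 and 8.80 in flight seedlings and 5.51, 8.49 and 9.47 in ground seedlings.

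Among kinesins without a role named here, those with the smallest p included the only gene whose seedling groups did not overlap. AT3G12020 lay at 9.73, 9.90 and 10.14 in flight seedlings and at 7.76, 9.31 and 9.66 in ground seedlings. All 6 flight arrays were above all 6 ground arrays for this 1 gene of 60, as for 0.391% of all probe sets, and 0 of 60 had all flight arrays below, as had 0.264% of all probe sets. Its difference was 0.91 ± 0.33 (SE, adjusted p = 0.519), and 0.65 without replicate 1 of ground seedlings. AT5G23910 had the smallest p, with 6.91, 7.39 and 7.96 in flight seedlings and 4.31, 5.35 and 7.24 in ground seedlings. Its difference of 1.77 ± 0.50 (SE) had an adjusted p of 0.392, with 5 flight arrays and 0 ground arrays above background. AT2G21380 lay at 6.91, 7.89 and 8.17 in flight seedlings and at 4.61, 5.90 and 7.89 in ground seedlings, a difference of 1.63 ± 0.57 (SE, adjusted p = 0.512). For both genes the highest ground array reached into the flight range. That array was replicate 1 of ground seedlings for each of them. Without it the difference of AT5G23910 rose to 2.083 and that of AT2G21380 to 1.998. AT3G20150 differed by 1.01 ± 0.41 (SE, adjusted p = 0.578), and by 0.857 without replicate 1 of ground seedlings.

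The lowest differences belonged to genes that were dim in both groups. AT3G10180 lay at 4.40, 5.68 and 6.30 in flight seedlings and at 5.69, 7.22 and 8.07 in ground seedlings, a difference of -1.45 ± 0.43 (SE, adjusted p = 0.406). AT3G63480 lay at 4.33, 4.70 and 6.75 in flight seedlings and at 4.79, 6.80 and 8.01 in ground seedlings, a difference of -1.56 ± 0.60 (SE, adjusted p = 0.547). For each, 0 flight arrays and 1 ground array passed background, so the flight groups have only a bound. AT3G49650 differed by -1.19 ± 0.61, AT5G02370 by -0.98 ± 0.52 and AT5G41310 by -0.75 ± 0.57 (SE), all with an adjusted p above that of AT3G63480.

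**Figure D3:**
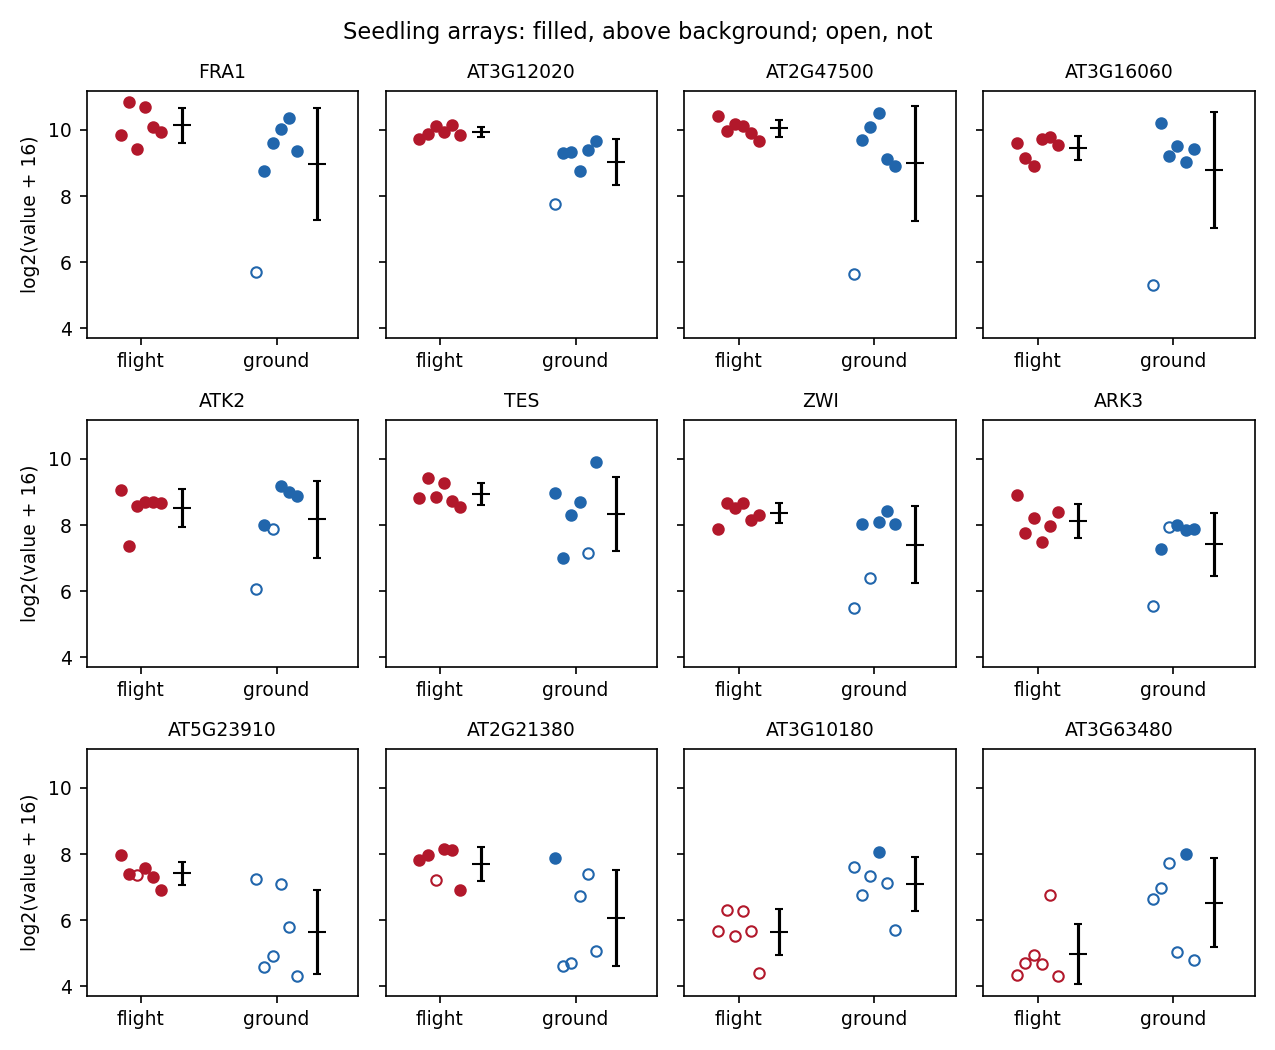
Values of 12 kinesins on the 12 seedling arrays, as log2(value + 16), flight left of ground, with the mean and SD beside each group; filled points are above the background of their array and open points are not. FRA1, AT2G47500, AT3G16060 and ATK2 each show a single low ground array, replicate 1, while AT3G12020 has flight values of 9.73 to 10.14 above all ground values.

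The remaining kinesins that were above background on all 6 flight seedling arrays gave no call either. They were picked out after their values were seen. AT1G21730 lay at 8.42, 8.66 and 9.32 in flight seedlings and at 6.61, 8.40 and 8.78 in ground seedlings, and AT5G66310 at 7.92, 8.99 and 9.08 in flight seedlings and at 6.79, 8.82 and 9.45 in ground seedlings. The groups overlapped for both, and the lowest ground value was again that of replicate 1. AT3G44050 lay at 7.87, 8.02 and 8.36 in flight seedlings and at 6.63, 7.74 and 8.39 in ground seedlings, and AT1G63640 at 7.82, 8.52 and 8.72 in flight seedlings and at 5.69, 8.02 and 9.47 in ground seedlings. For these 4 genes the flight range was narrower than the ground range. ATK4 differed by -0.07 and AT2G21300 by -0.25, which were -0.27 and -0.40 without replicate 1 of ground seedlings. AT5G27950 differed by 1.11 ± 0.56 (SE, adjusted p = 0.650). Without replicate 1 of ground seedlings AT5G27950 differed by 0.71. AT2G47500, with 9.68, 10.05 and 10.41 in flight seedlings and 5.66, 9.40 and 10.49 in ground seedlings, differed by 1.06 ± 0.64 (SE), and by 0.39 without that array. AT3G16060 lay at 8.91, 9.58 and 9.79 in flight seedlings and at 5.30, 9.32 and 10.22 in ground seedlings. Its difference of 0.67 was -0.02 without replicate 1 of ground seedlings.

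Scaling decided whether 1 seedling kinesin was called. The deposited arrays all have the same trimmed mean, and under it the spiked hybridization controls averaged 14.70 in flight seedlings and 15.50 in ground seedlings. When each array was set to those controls instead, an alternative chosen after seeing the data, the median of all probe sets moved to 0.77 and that of the 60 kinesins to 1.14, with 56 genes higher in flight. AT5G23910 was then called at 2.56 (adjusted p = 0.0351 by limma), as were 0.321% of all probe sets on the higher side. Under the same scaling 2 of 6 plastid, 1 of 6 shoot epidermis and 0 of 8 root markers were called higher in flight. Their medians were 2.10, 1.51 and 0.76. The authors' deposited table for seedlings gave 0 of the 60 genes a q-value under 0.05 and 11 a p-value under 0.05, with a smallest q of 0.298.

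Genes that work with kinesins gave no call in seedlings either. Called in flight seedlings minus ground seedlings were 0 of 11 cytokinesis partners such as KNOLLE, 0 of 13 mitotic cyclins, kinases and regulators, 0 of 11 DNA replication genes, 0 of 16 other microtubule genes and 0 of 16 myosins. Their median differences were -0.20, 0.02, 0.54, 0.14 and -0.14 in that order, against -0.02 over all probe sets. The smallest p among them was that of CYCB1;3, a mitotic cyclin, with a difference of -1.29 ± 0.40 (SE, adjusted p = 0.442), and it was above background on 0 arrays of either group. MAP65-2, a microtubule bundling protein, differed by 2.09 ± 0.66 (SE, adjusted p = 0.447) and was above background on all 6 flight and 3 ground arrays.

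The same question was asked of the cultured cells. Again 0 of 60 kinesins were called in flight cells minus ground cells, where 0.0352% of all probe sets were called. At an unadjusted p under 0.05 there were 2 kinesins higher and 3 lower, against 5.76% of all probe sets, 3.03% higher and 2.73% lower. By value 24 were higher and 36 lower in flight, where 50.4% of all probe sets were higher. Their median was -0.15 against 0.01 over all probe sets, and scaling to the spiked controls turned this to 41 higher with a median of 0.21 against 0.36 over all probe sets. No kinesin separated the groups, where 0.141% of all probe sets had every flight array above and 0.127% every flight array below the ground arrays. The limma fit found 1 spread for all probe sets in cells, so each difference carries the same SE of 0.82.

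By role, cells gave no common direction. Of the phragmoplast and division plane genes 3 were higher and 3 lower in flight cells, of the spindle genes 1 and 3, and of the interphase genes 3 and 6. KINESIN-12B lay at 8.43, 9.24 and 9.89 in flight cells and at 6.66, 8.05 and 10.04 in ground cells, a difference of 1.03 (adjusted p = 0.946), with all 6 flight arrays above the ground mean. Its partner PAKRP1 had the opposite sign, with 6.04, 7.39 and 9.13 in flight cells and 7.61, 9.58 and 10.57 in ground cells, a difference of -1.75 (adjusted p = 0.852). Both ranges overlapped, and signal over background came from 2 flight and 1 ground arrays for KINESIN-12B and from 1 flight and 2 ground arrays for PAKRP1. ATK5 lay at 5.37, 6.73 and 9.49 in flight cells and at 7.55, 8.88 and 9.82 in ground cells, a difference of -1.75 (adjusted p = 0.852), and it was above background on no cell array. HIK, above background on 4 flight cell arrays and 2 ground cell arrays, lay at 5.68, 9.55 and 10.62 in flight cells and at 5.79, 8.21 and 10.67 in ground cells.

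Other cell values with a small p were of the same kind. AT2G37420 lay at 5.85, 8.83 and 9.96 in flight cells and at 5.34, 6.06 and 7.60 in ground cells, a difference of 2.15 that had the smallest adjusted p of a kinesin, 0.795. AT1G09170 lay at 5.60, 7.08 and 9.0 in flight cells and at 8.29, 9.37 and 10.32 in ground cells, a difference of -2.09 (adjusted p = 0.828). For both genes the groups overlapped, and at most 1 array of either group was above background. AT1G73860 differed by 1.76, AT3G45850 by 1.46 and AT5G60930 by 1.31, while ATK2 differed by -1.32 and ARK2 by -1.12. None of the 5 gene lists had a called member in cells, and the authors' deposited table for cells gave 0 of the 60 genes a q-value under 0.05.

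Whether flight differed between the materials was tested as the flight difference in cells minus that in seedlings. Of the 60 kinesins 0 were called, as were 0% of all probe sets, and 23 were positive, against 51.6% of all probe sets. At an unadjusted p under 0.05 there were 1 positive and 4 negative kinesins, against 6.63% of all probe sets, 3.68% positive and 2.95% negative. AT2G37420 was the positive one at 2.68 ± 0.93 (SE, adjusted p = 0.571), from 2.15 in cells and -0.54 in seedlings. PAKRP1 had -2.34 ± 0.92 (SE, adjusted p = 0.628), from -1.75 in cells and 0.59 in seedlings. AT5G23910 (-2.20), KAC1 (-2.01) and ARK2 (-1.90) were the others. No difference between the materials passed the test, and the SE near 0.9 limits what 6 arrays a group could show.

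The last comparisons set cells against seedlings, once on the ground and once in flight. Most cell arrays came from canister B and most seedling arrays from canister A, so canister and material are largely confounded here. The control probe sets for the 3' and 5' ends of GAPDH also differed by material. Their log2 difference, 3' minus 5', averaged 1.83 in flight cells, 1.44 in ground cells, 2.81 in flight seedlings and 2.67 in ground seedlings. Its part in these comparisons was not tested. As deposited, 15 of the 60 kinesins were called in ground cells minus ground seedlings, all higher in cells, where 27.6% of all probe sets were called higher and 10.5% lower, 38.1% in all. In flight cells minus flight seedlings 21 were called, 17 higher and 4 lower, where 32.9% of all probe sets were called higher and 12.5% lower, 45.4% in all. The shares of kinesins called higher, 15 of 60 and 17 of 60, lie near those backgrounds. The median difference was 1.19 on the ground and 1.00 in flight, against 0.77 and 0.75 over all probe sets. Positive differences were found for 49 of the 60 on the ground, against 65.4% of all probe sets, and for 44 in flight, against 63.7%. On the ground AT1G09170 had the smallest p, with 8.29, 9.37 and 10.32 in ground cells and 4.98, 5.94 and 7.17 in ground seedlings, a difference of 3.24 ± 0.65 (SE, adjusted p = 0.000233 by limma). Its groups did not overlap, but only 1 ground cell array and 0 ground seedling arrays were above background. AT4G14330 was the other kinesin with every ground cell array above every ground seedling array, as were 4.95% of all probe sets, and 0 of 60 lay the other way, as did 4.76%. In flight the smallest p was that of AT1G73860, with 6.26, 9.04 and 9.92 in flight cells and 4.28, 5.39 and 7.02 in flight seedlings, a difference of 2.94 ± 0.65 (SE, adjusted p = 0.000455 by limma).

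Named by role, the calls on the ground were PAKRP1 of the phragmoplast (2.34), ATK5 of the spindle (1.94), ARK2 (2.35) and KAC1 (2.24). The other 11, among them AT5G23910 (2.56), AT2G36200 (2.32), AT4G14330 (2.22), AT2G21380 (2.18) and AT5G06670 (2.06), have no role named here. AT1G18550 (1.91), AT2G28620 (1.81), AT2G21300 (1.75), AT5G42490 (1.73) and AT3G51150 (1.59) were the weakest of these. In flight the higher calls held KINESIN-12B (2.03) of the phragmoplast, with 8.43 to 9.89 in flight cells above 5.51 to 8.41 in flight seedlings, a separation that 8.44% of all probe sets shared, and ZCF125 (2.02). Others in flight were AT5G41310 (2.55), AT2G37420 (2.48), AT4G24170 (2.31), AT3G10180 (2.29), AT3G63480 (2.19), AT4G38950 (2.17), AT1G55550 (2.15), AT3G49650 (2.14) and AT5G42490 (1.95). AT1G18410 (1.86), AT2G28620 (1.85), AT1G18550 (1.84), AT1G09170 (1.81) and AT2G21300 (1.73) complete them. Called in both comparisons were 5 genes, all in the same direction, which is 33.3% of the ground calls and 23.8% of the flight calls. Over all probe sets the shared calls were 71.1% of the ground calls and 59.7% of the flight calls, and 27.1% of all probe sets were called in both comparisons, against 8.33% of the kinesins.

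These higher calls were made on dim signal. Of the 15 on the ground 8 were above background on no cell array and 7 on 1 to 3, and of the 17 in flight 4 were on none and 13 on 1 to 3. Without replicate 5 of flight cells, 11 of the 17 were on none and 6 on 1 to 3. No at-least fold above 1 remained for any of them once the dim values were raised to background, so the log2 differences above are differences of the deposited values and are not given as folds. Their direction also turned with the scaling. The spiked controls averaged 17.48 in flight cells and 17.84 in ground cells, against 14.70 in flight seedlings and 15.50 in ground seedlings. Set to those controls, the median of all probe sets was -1.57 on the ground and -2.03 in flight. In this alternative, chosen after seeing the data, the kinesins called were 15 on the ground, all lower in cells (45.6% of all probe sets), and 33 in flight, all lower (56.1%). After quantile normalization 1 kinesin was called on the ground, AT1G09170 higher (8.09% of all probe sets), and 6 in flight, AT1G73860 higher (12.2%) and 5 lower (14.2%). Of the 21 flight calls as deposited 4 were kept, and TES and AT1G21730 were called lower only after quantile normalization and on the spiked controls.

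Of the kinesins 3 were called lower in flight cells under each of the 3 scalings. Over all probe sets 12.5% were called lower as deposited, 14.2% after quantile normalization and 56.1% on the spiked controls. The share of all probe sets called lower under all 3 was not counted, so the 3 kinesins cannot be set against it. ATK2, AT3G12020 and AT3G16060 passed the test as lower in flight cells than in flight seedlings as deposited, after quantile normalization and after scaling to the spiked controls. ATK2 lay at 5.56, 5.91 and 8.74 in flight cells, above background on none, and at 7.38, 8.68 and 9.07 in flight seedlings. Its difference was -1.95 ± 0.68 as deposited (SE, adjusted p = 0.0176 by limma), -2.80 after quantile normalization and -4.72 on the spiked controls. AT3G16060 lay at 5.92, 7.21 and 9.38 in flight cells and at 8.91, 9.58 and 9.79 in flight seedlings, a difference of -2.01 ± 0.70 (SE, adjusted p = 0.0178 by limma) that was -2.50 and -4.79 under the other scalings. AT3G12020 lay at 6.59, 8.70 and 9.32 in flight cells and at 9.73, 9.90 and 10.14 in flight seedlings, with no overlap, and its difference was -1.58 ± 0.60 (SE, adjusted p = 0.0292 by limma). It was -2.08 and -4.35 under the other scalings. With single arrays left out, ATK2 stayed called as deposited in each case. AT3G16060 was not called without replicate 2 (-1.71) or 6 (-1.71) of flight cells, nor AT3G12020 without replicate 2 (-1.22) or 4 (-1.44) of flight cells or replicate 5 (-1.54) of flight seedlings. All flight cell arrays lay below all flight seedling arrays for 8.18% of all probe sets. Besides AT3G12020 this held for AT2G47500, with 5.99 to 9.63 in flight cells and 9.68 to 10.41 in flight seedlings. AT2G47500 was called at -1.86 ± 0.76 (SE, adjusted p = 0.0408 by limma) as deposited and at -4.63 on the spiked controls, and after quantile normalization its -2.05 had an adjusted p of 0.0501. The mean background of flight cells, 9.57, lay above the mean of ATK2 and AT3G16060 in flight seedlings, 8.51 and 9.45. With the dim values raised to background, the mean of AT3G16060 was 9.88 in flight cells, above its 9.45 in flight seedlings. ATK2 was above background on no flight cell array. Over background, neither a size nor a direction can therefore be given for these 2 differences. AT3G12020 was above background on 1 flight cell array, and with the dim values raised to background its means were 9.71 in flight cells and 9.94 in flight seedlings.

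On the ground the same 4 genes had negative differences under all 3 scalings, but passed the test only on the spiked controls. As deposited, ATK2 differed by -0.28, AT3G12020 by -0.70, AT3G16060 by -0.85 and AT2G47500 by -0.69. In all, 11 of the 60 genes were lower in ground cells under each scaling and 3 were higher, ARK2, AT1G09170 and AT5G23910, and in flight 16 were lower and 1, AT1G73860, higher. The remaining genes changed sign with the scaling.

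**Figure D4:**
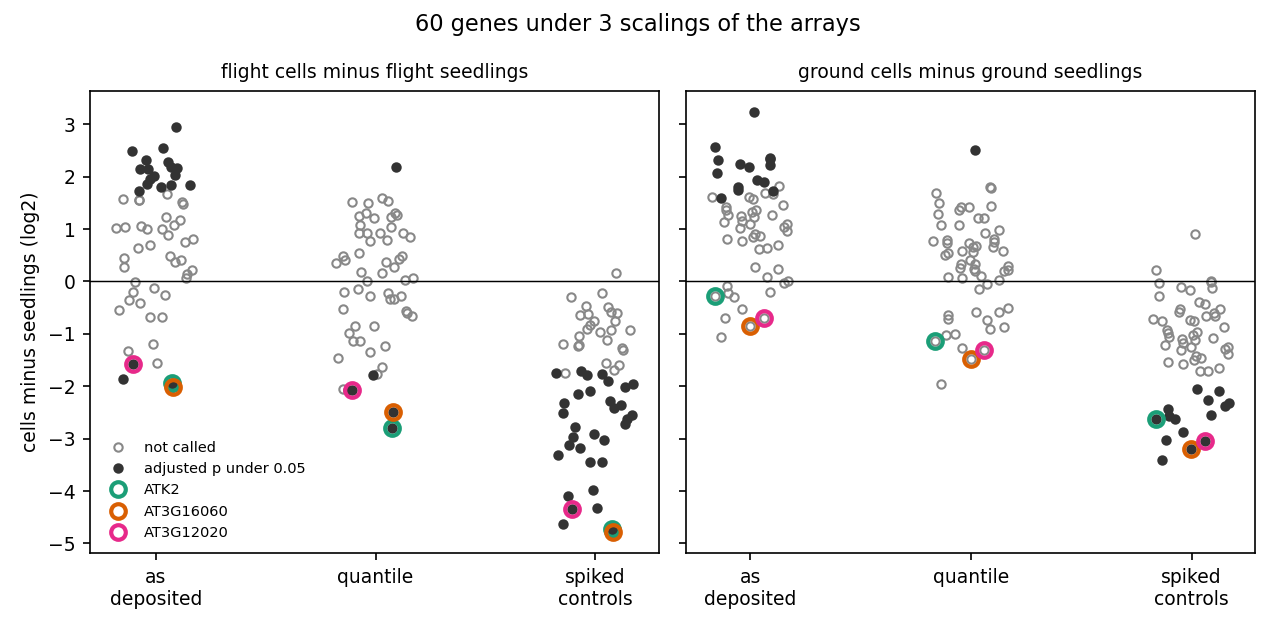
Cells minus seedlings difference of each of the 60 genes (log2) in flight and on the ground, under the arrays as deposited, after quantile normalization and after scaling to the spiked hybridization controls; filled points are called at an adjusted p under 0.05 and rings mark ATK2, AT3G16060 and AT3G12020. The 17 genes called higher in flight cells as deposited are reduced to 1 by quantile normalization and to 0 by the spiked controls, while the ringed genes stay below 0.

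Among the other gene lists, calls depended on the scaling as well. The counts are to be read against all probe sets, of which 27.6% were called higher and 10.5% lower on the ground and 32.9% and 12.5% in flight as deposited, 8.09% and 11.4% on the ground and 12.2% and 14.2% in flight after quantile normalization, and 45.6% on the ground and 56.1% in flight lower on the spiked controls. As deposited, 3 of 13 mitosis genes were called higher in ground cells and 4 of 13 in flight cells. After quantile normalization 1 was called lower on the ground and 2 higher in flight, and on the spiked controls 2 and 6 were called lower. Myosins, the actin motors, gave 4 higher and 3 lower of 16 in ground cells and 7 higher and 3 lower in flight cells. These were 2 higher and 4 lower on the ground and 4 higher and 4 lower in flight after quantile normalization, and 6 and 9 lower on the spiked controls. The other microtubule genes were lower in cells in most calls under each scaling, with 3 lower of 16 on the ground and 2 higher and 6 lower in flight as deposited. After quantile normalization these were 3 lower on the ground and 1 higher and 8 lower in flight, and on the spiked controls 11 and 14 were lower. SPR1, a plus-end protein of cortical microtubules, led them on the ground at -4.06 ± 0.68 (SE). Cytokinesis partners gave 1 higher and 2 lower of 11 on the ground and 2 higher and 3 lower in flight. Among them was SYP132, a syntaxin, at -2.79 and -2.77. After quantile normalization the partners gave 0 higher and 2 lower on the ground and 1 higher and 2 lower in flight. On the spiked controls 6 and 8 of them were lower and 0 higher. DNA replication genes gave 0 of 11 on the ground and 1 higher in flight. They gave 0 and 0 after quantile normalization, and 8 and 10 lower on the spiked controls.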

How the data were processed

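The authors deposited 1 linear intensity per probe set and array. The submitters' processing notes name MAS5 and the Affymetrix Expression Console, without a version. The mean of each array after trimming 2% at each end was 500. The authors' deposited tables hold p-values, q-values and log2 fold changes for flight against ground, per the file headers, and the test is not given in the sources used here. These tables were used for comparison only.

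Values were taken as log2(value + 16). The 64 control probe sets were left out and 22746 were tested with limma 3.58.1 in R 4.3.3 (lmFit and eBayes, two-sided, Benjamini-Hochberg over all probe sets, threshold 0.05), with no filter on dim probe sets. Each flight comparison used the 12 arrays of its material, and the other comparisons used 1 fit over 24 arrays. The test was also run on simulated arrays with known changes in a small set of probe sets, and the outcome is not given here. Those arrays held no broad shift between materials, so they do not cover the comparisons of cells with seedlings. Alternatives covered the pseudocount, normalization, filters, priors, array weights, the probe set per gene, hardware position and canister, and leaving out each array. Tables and figures were made with Python, pandas and matplotlib.

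The genes, the role lists and the other gene lists were chosen with earlier results of these data known. Named in each comparison are all called kinesins if 30 or fewer, or else, where fewer than 10 were called, 5 per direction, by p. The role lists are also named. The rule further holds the 10 genes of highest mean per group, which are given only where described for another reason, since levels of different probe sets are not comparable. Of each gene list it names the 2 called genes with the smallest p, or else 1. AT2G28620 and AT4G14330 were in role lists but carry no symbol here and were left out of the roles. Genes that share a probe set with another gene are not analysed here. Searches of promoters and proteins for motifs were not run, and sequences are not used here. Coordinates are not given, since the files name no build.

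Whether the dishes of a group came from separate cultures or seed lots is not given in the labels, so every p-value covers only the spread between these arrays, which may be technical. The number of arrays limits the precision. Hardware position is shared between the flight and ground groups of the same material, but not between cells and seedlings. For flight and ground arrays in the same position, the deviations from the group means were correlated over all probe sets. These correlations were -0.053 to 0.104 in cells and -0.020 to 0.057 in seedlings. For some flight arrays the ground array in the same position was the closest of its group, and for others it was not. Such low correlations cannot show whether position pairs the samples. Cells were in canisters B and G and seedlings in canisters A and G, so canister and material are largely confounded.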

Additional observations from a re-analysis of the deposited data

Results flagged for a closer look

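Single arrays that lie far from the other 5 of their group were looked for in 204 sets of 6 values, and 16 were found. Chance alone gives about 1 in 20. In seedlings on the ground, replicate 1 was far below the other arrays for FRA1 at 5.70, ARK3 at 5.54, AT2G47500 at 5.66, AT3G16060 at 5.30 and AT5G02370 at 4.75 (log2 values), and replicate 2 for AT2G37420 at 5.02. In flight seedlings the low arrays were replicate 2 for ATK2 at 7.38, replicate 3 for AT3G45850 at 5.99 and for KINESIN-13A at 4.85, and replicate 5 for AT3G20150 at 6.22. AT3G63480 was high in replicate 5 of flight seedlings at 6.75. In flight cells AT3G20150 was high in replicate 5 at 9.35 and HIK was low in replicate 6 at 5.68. In ground cells AT1G18410 was high in replicate 4 at 9.54 and TES in replicate 5 at 10.1. Replicate 5 of flight cells also stood apart with 76.7% of the 60 genes above background. Replicate 1 of ground seedlings accounts for 5 of the 16.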

How the results depend on the processing

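In flight cells minus ground cells 0 kinesins were called under all 24 alternatives, in the difference between materials under all 36, and in flight seedlings minus ground seedlings under 23 of 24. The exception was the scaling to spiked controls, with 1 call. The replicate block for hardware position gave 0 calls in these 3 comparisons, as without it. Cells and seedlings were not compared with such a block. Leaving out each array in turn gave 0 calls in the 3 comparisons, 12 to 18 in ground cells minus ground seedlings and 17 to 22 in flight cells minus flight seedlings. Under it 9 of 15 and 11 of 21 calls were kept throughout. In ground cells minus ground seedlings the count was 1 after quantile normalization, 4 among the brighter probe sets, 1 among probe sets above background on at least 6 arrays and 15, all lower, on the spiked controls. In flight cells minus flight seedlings it was 6, 5, 5 and 33 under the same settings, with lower calls in the majority. The filters test fewer genes, and for the scalings the cause was not tested. The share of kinesins above background in ground cells was 13.6% with the 90th percentile of the control probe sets, against 8.61%. On the spiked controls AT5G41310 was 0.043 in flight seedlings minus ground seedlings. In ground cells minus ground seedlings they gave PAKRP1 -0.00418, KAC1 -0.10, AT2G36200 -0.022, AT4G14330 -0.13, AT2G21300 -0.59, AT2G21380 -0.16, ATK5 -0.40, AT5G06670 -0.28, AT1G18550 -0.44, AT5G42490 -0.61, AT3G51150 -0.75 and AT2G28620 -0.53. In flight cells minus flight seedlings they gave AT2G37420 -0.29, AT5G41310 -0.23, AT3G10180 -0.49, AT3G63480 -0.59, AT4G24170 -0.46, KINESIN-12B -0.75, AT5G42490 -0.83, AT3G49650 -0.63, AT2G21300 -1.05, AT1G55550 -0.62, AT4G38950 -0.60, AT1G09170 -0.97, ZCF125 -0.75, AT1G18550 -0.93, AT1G18410 -0.91 and AT2G28620 -0.93. The low signal over background on the cell arrays limits every value given for cells.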
